A study of Mus musculus with 8 samples.

Results

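The odorant receptor genes Olfr720 to Olfr752 of mouse chromosome 14 were followed in polysome-associated RNA of the main olfactory epithelium. They were taken by symbol: every row of the deposited expression table with a symbol from Olfr720 to Olfr752, pseudogenes left out. The rule found 29 of 21765 rows, which is 2.66% of the 1090 rows named as receptor genes. The symbols Olfr720, Olfr722 to Olfr736 and Olfr738 to Olfr750 are all of them. The rule used no expression value, but this range of symbols was chosen with earlier results of these data known.

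Odorant receptors are G protein-coupled receptors that sit in the cilia of olfactory sensory neurons. A mature neuron transcribes a single receptor gene, from a single allele, out of a very large family that lies in clusters on most chromosomes. The level of a receptor gene in the whole epithelium therefore follows both how many neurons chose it and how much RNA each of them holds. In bulk tissue such as this, fewer cells of a type and less RNA per cell cannot be told apart. All 8 libraries hold polysome-associated RNA, so a smaller share of an mRNA on polysomes cannot be told apart from these either. Mex3a, the gene deleted here, encodes an RNA-binding protein.

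The epithelium was bathed in 100 µg/mL cycloheximide, which holds ribosomes on mRNA, when it was dissected. Lysates were separated on sucrose gradients into about 42 fractions of 350 µL. From each fraction 50 µL went into a pool, early polysomes from fractions 27 to 34 and late polysomes, which sediment further, from fractions 35 to 42. WT mice were Mex3a flox/flox or Mex3a flox/+ without Cre, and conditional knockout (cKO) mice were Mex3a flox/flox with Cre, so both genotypes carried a floxed allele. The ages of the mice are not given in the sources used here. There were 2 libraries for each genotype and pool, 8 in all, and the library names place the early and late library of a genotype and replicate number on 1 lysate. Nothing in the labels says how many mice a lysate held, so the p-values measure the spread between these libraries, which may be technical.

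Expression is given in transcripts per 1000000 (TPM), which divides reads by gene length. Mex3a stood at 93.2 to 115.6 TPM in the 4 WT libraries and at 11.1 to 19.8 TPM in the 4 cKO libraries. The WT early library of replicate 2 is tagged with the cKO genotype against its title, and its Mex3a level of 115.6 TPM is the highest of all 8. It was kept as WT. The TPM values move in whole steps, from which between 7776792 and 12771079 reads per library were inferred, the fewest in cKO late replicate 2. The 29 receptor genes held 574 to 1738 of these reads per library. Markers of mature sensory neurons were abundant in all libraries, with 21 of 21 above 0 and a summed level of 13985 to 21991 TPM in WT and 11750 to 19543 TPM in cKO.

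On GRCm38 (GENCODE annotation), 28 of the genes lie within 1180 kb of chromosome 14, from 49894258 to 51074435. Olfr720, at 14171738 to 14186838, lies 35.7 Mb before them. All 29 are annotated as protein-coding, 17 on the minus and 12 on the plus strand, with coding sequences of 924 to 1065 bases. The receptor family names in RefSeq place Olfr725 to Olfr729 and Olfr731 in family MOR246, and Olfr736 and Olfr738 to Olfr749 in family MOR106. Olfr722, Olfr732 and Olfr733 are MOR241, Olfr723, Olfr724 and Olfr730 are MOR247, and Olfr720, Olfr734, Olfr735 and Olfr750 are the single representatives of 4 other families. Olfr738 overlaps a receptor pseudogene on the opposite strand, and no other pair of genes overlaps.

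The largest genotype differences described below fell within 2 sets of near-copies, and the start of their coding sequences shows how alike they are. The first set is Olfr726 (50083570 to 50090953, minus strand) with its neighbours Olfr725 and Olfr727. The first 90 coding bases are shown 5′ to 3′, read from the GENCODE transcripts. Capitals mark bases that differ from Olfr726.
Olfr726: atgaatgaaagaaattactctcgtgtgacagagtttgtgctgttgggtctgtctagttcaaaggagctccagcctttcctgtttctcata
Olfr725: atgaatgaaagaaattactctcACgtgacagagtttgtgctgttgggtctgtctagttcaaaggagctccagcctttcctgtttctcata
Olfr727: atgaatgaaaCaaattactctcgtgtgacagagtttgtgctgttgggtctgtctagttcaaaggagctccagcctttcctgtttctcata
Over the whole coding sequence Olfr725 and Olfr726 are 96.0% identical, Olfr726 and Olfr727 are 93.1% identical, and Olfr725 and Olfr727 are 91.7% identical. They share identical stretches of up to 212 bases.

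The second set lies in a row on the plus strand: Olfr739 (50418626 to 50427888), Olfr740 (50445545 to 50456933), Olfr741 (50472738 to 50488338), Olfr742 (50503600 to 50517145) and Olfr743 (50521839 to 50534955). Capitals here mark bases that differ from Olfr742, after alignment.
Olfr742: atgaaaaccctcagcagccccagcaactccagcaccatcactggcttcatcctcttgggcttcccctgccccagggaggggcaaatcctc
Olfr741: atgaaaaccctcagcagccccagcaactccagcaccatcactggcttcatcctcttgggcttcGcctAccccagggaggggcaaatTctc
Olfr743: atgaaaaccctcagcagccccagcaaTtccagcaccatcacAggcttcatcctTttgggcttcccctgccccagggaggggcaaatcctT
Olfr740: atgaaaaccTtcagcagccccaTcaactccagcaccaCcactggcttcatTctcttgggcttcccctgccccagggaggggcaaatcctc
Olfr739: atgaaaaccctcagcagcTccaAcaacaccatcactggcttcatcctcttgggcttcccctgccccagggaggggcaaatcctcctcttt
Olfr739 also lacks 6 bases that the other genes of this set carry near the start. Olfr741 and Olfr742 are 96.4% identical, Olfr742 and Olfr743 are 94.6%, and Olfr739 and Olfr742 are 93.4%. Elsewhere in the cluster Olfr723 and Olfr724 reach 98.5%, and Olfr747 and Olfr749 reach 98.3%. How the authors counted reads that match several genes is not given in the sources used here, so the split of reads within each of these sets is uncertain.

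Receptor mRNAs were low. Averaged over the 8 libraries, the 29 genes ranged from 0.738 to 10.0 TPM with a median of 2.35 TPM, against a median of 1.82 TPM over the other 1061 receptor rows. Olfr727 led with the rank of 17 among the 1090 receptor rows, followed by Olfr722 (31) and Olfr726 (39). All 29 genes were above 0 in each WT library and 28 in each cKO library. Olfr724, Olfr725 and Olfr746 averaged less than 1 TPM and were not tested, which leaves 26 genes in the tests.

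**Figure D1:**
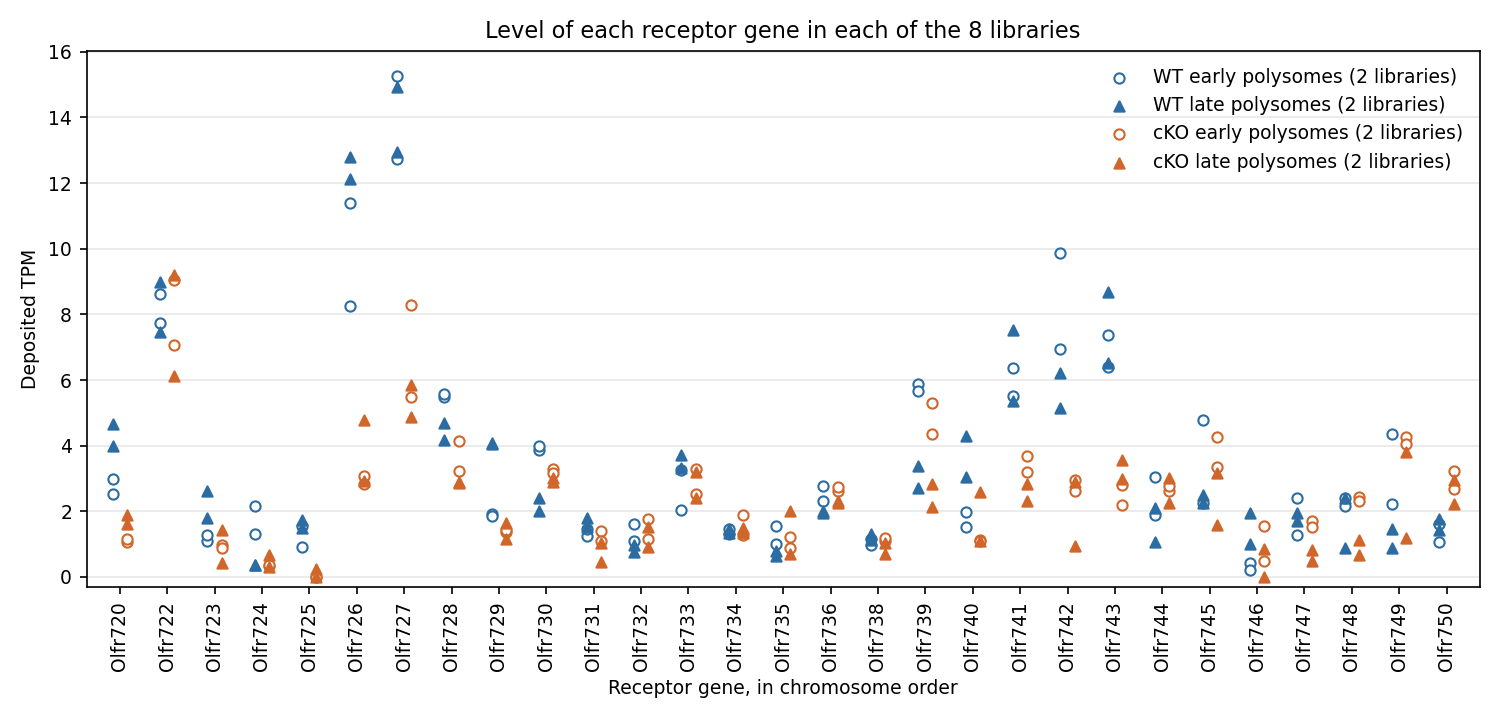
Deposited TPM (vertical axis, linear) of the 29 receptor genes in chromosome order, 1 point per library. Olfr726, Olfr727 and Olfr741 to Olfr743 sit lower in all 4 cKO libraries (orange) than in all 4 WT libraries (blue), while Olfr722 overlaps and Olfr750 sits higher in cKO.

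The comparison of genotypes asks whether polysome-associated receptor mRNA differed after deletion of Mex3a. The 29 genes together made up 3.66 to 3.96% of all receptor TPM in the WT libraries and 2.57 to 2.87% in the cKO libraries. Their summed level was 95.4 to 116.1 TPM in WT and 60.3 to 78.3 TPM in cKO. These ranges do not overlap. The other receptor rows summed to 2509 and 2936 TPM in WT and 2499 and 2782 TPM in cKO in early polysomes, where the genotypes overlapped. In late polysomes they summed to 2528 and 2583 TPM in WT and 2171 and 2288 TPM in cKO, without overlap, so the other receptor genes together were also lower in the late cKO libraries.

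Olfr726, a MOR246 receptor, measured 8.25 and 11.4 TPM in the early and 12.1 and 12.8 TPM in the late WT libraries. Its cKO levels were 3.08 and 2.83 TPM in early and 4.77 and 2.93 TPM in late polysomes. Every cKO library lay below every WT library, and the scaled cKO level was 31.6% of WT. On lysate means (early and late of 1 lysate averaged, 2 WT against 2 cKO), limma gave a log2 difference of -1.43 ± 0.17 (SE) on log2(scaled TPM + 1), with adjusted p = 0.146 over all 16097 genes tested, which misses the threshold of 0.05. This was the lowest unadjusted p of the 26 genes (0.000162). Between the alternatives run, the adjusted p ranged from 0.0374 to 0.293 and the difference from -1.67 to -1.26.

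Olfr727, the most abundant of the 29 genes and next to Olfr726, measured 12.7 and 15.3 TPM in the early and 14.9 and 13.0 TPM in the late WT libraries. In cKO it measured 5.48 and 8.28 TPM in early and 4.87 and 5.85 in late polysomes. The genotypes did not overlap, and cKO stood at 45.5% of WT. The log2 difference on lysate means was -1.05 ± 0.15, with an adjusted p of 0.199 by limma (0.0386 to 0.469 between alternatives).

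Olfr725, the near-copy of Olfr726, measured 1.56 and 0.916 TPM in the early and 1.49 and 1.73 TPM in the late WT libraries. It was at 0 in 3 cKO libraries and at 0.233 TPM in cKO late replicate 2. In inferred reads these were 12, 7, 10 and 12 reads in WT and a single read in cKO. The 4 cKO libraries together held 1 read in 39822975 against 41 in 48921251 for WT, which puts the cKO level at 3.00% of WT with an exact 95% interval of 0.0741 to 17.7% that covers counting error only. Its mean of 0.740 TPM kept it out of the main test. With no filter on low values, its difference on lysate means was -1.18 (adjusted p = 0.224 by limma).

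The row of MOR106 near-copies from Olfr741 to Olfr743 was also lower in cKO. Olfr743 measured 6.41, 7.38, 8.69 and 6.52 TPM in WT (the early libraries first) and 2.21, 2.79, 2.99 and 3.57 TPM in cKO. Olfr742 measured 6.94, 9.88, 6.22 and 5.14 TPM in WT and 2.63, 2.95, 0.942 and 2.88 TPM in cKO. Olfr741 measured 5.51, 6.36, 5.35 and 7.53 TPM in WT and 3.21, 3.68, 2.33 and 2.83 TPM in cKO. For none of the 3 did the genotypes overlap. Scaled cKO levels were 41.0%, 34.4% and 50.7% of WT for Olfr743, Olfr742 and Olfr741. On lysate means the limma differences were -1.05 ± 0.15 (adjusted p = 0.197), -1.25 ± 0.21 (0.255) and -0.80 ± 0.17 (0.328), so these too missed the threshold. Without WT lysate 2, which holds the library with the conflicting genotype tag, the differences were -1.31 for Olfr726, -1.03 for Olfr727, -1.19 for Olfr742 and -1.10 for Olfr743.

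None of the 26 genes passed an adjusted p of 0.05 on lysate means in limma, in early polysomes or in late polysomes. Over all genes the shares that passed were 0.00621%, 0.0435% and 0.0124%, and the gene passing on lysate means was Mex3a itself (-2.67 ± 0.14, adjusted p = 0.0227). With voom on the inferred reads, none passed in early (all genes 0.0746%) or late polysomes (0.0933%). For lysates, voom took the summed early and late reads of each lysate in place of their mean. There 4 passed, all lower in cKO, where 0.236% of all genes were called lower: Olfr726 (-1.67, adjusted p = 0.0374), Olfr727 (-1.15, 0.0386), Olfr742 (-1.56, 0.0483) and Olfr743 (-1.32, 0.0483). With the replicate number as a block, limma passed Olfr726 and Olfr727 (adjusted p = 0.0393 for each) and called 0.28% of all genes lower. The labels tie WT and cKO lysates of the same number together by that number and by a shared run of serial numbers in the library names. They do not say what such lysates had in common.

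At an unadjusted p under 0.05, 8 of 26 genes were lower in cKO on lysate means (all genes 5.24%, other receptor genes 12.4%) and 1 was higher (6.09% and 5.14%). In early polysomes 7 were lower (all genes 3.44%, other receptor genes 6.64%) and 1 higher (3.2% and 6.02%). In late polysomes 11 were lower (4.36% and 10.7%) and 0 higher (4.99% and 3.26%). The 8 on lysate means were Olfr720, Olfr726, Olfr727, Olfr728, Olfr729, Olfr741, Olfr742 and Olfr743, the 1 higher gene was Olfr750. Of these, Olfr720, Olfr728 and Olfr750 fall outside the rule for named genes and were singled out after their values were seen.

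Counting libraries on scaled TPM without a test, 7 of 26 genes had all 4 cKO libraries below all 4 WT libraries (all genes 1.28%, other receptor genes 6.77%). All 4 lay above in 1 gene (all genes 1.0%, other receptor genes 2.63%). The 7 were the lower genes just named without Olfr728. The median log2 difference on lysate means was -0.17 over the 26 genes, -0.028 over the 798 other receptor genes tested and 0.0014 over all genes.

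**Figure D2:**
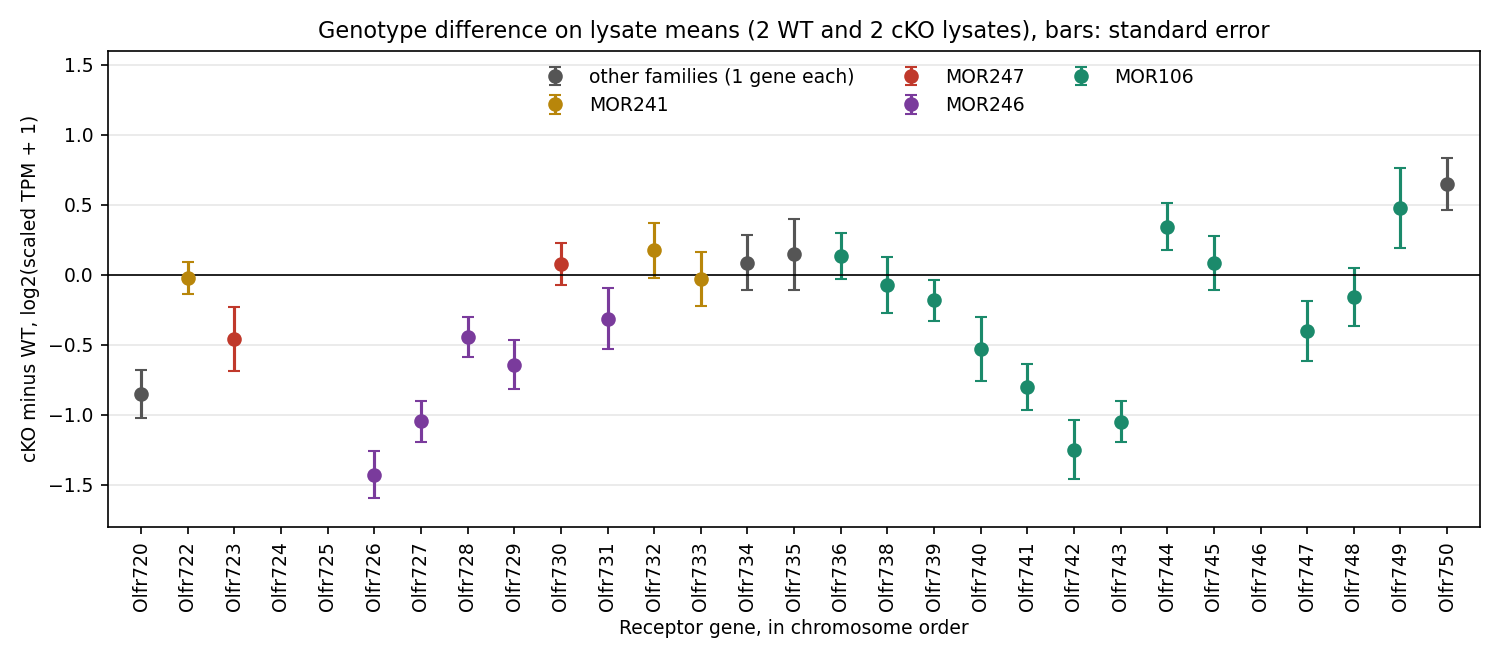
Log2 difference, cKO minus WT, on the means of 2 WT and 2 cKO lysates for the 26 tested receptor genes in chromosome order, with the standard error as bars and colours for receptor families; the 3 untested genes have no point. Olfr726 (-1.43) and Olfr742 (-1.25) lie lowest and Olfr750 (0.65) highest, and Olfr732 to Olfr738 lie between -0.07 and 0.17.

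In family MOR246, all 5 tested genes had a negative difference on lysate means, from -1.43 to -0.31 with a median of -0.64. All 5 were negative under each of the 4 other scalings too. These scalings reuse the same lysates and moved the median of all genes only to between -0.043 and 0.084, so they add little support. Its 6 genes summed to 31.2 to 39.1 TPM in WT and 14.0 to 17.8 TPM in cKO. Olfr728, the next gene after Olfr727, differed by -0.44 ± 0.14 on the log2 scale (adjusted p = 0.385 by limma). Its libraries overlapped on scaled TPM. On deposited TPM they separated narrowly, with at least 4.17 TPM in WT and at most 4.15 TPM in cKO. In MOR106, 8 of 12 tested genes had a negative difference, with a median of -0.17. Negative differences made up 53.3% of the other receptor genes and 49.6% of all genes. The MOR106 sum was 39.4 to 51.0 TPM in WT and 22.4 to 35.2 TPM in cKO. MOR241 summed to 10.9 to 13.5 TPM in WT and 10.8 to 13.5 TPM in cKO.

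Olfr722, the most abundant gene in cKO and a MOR241 receptor at the start of the cluster, measured 7.74 and 8.61 TPM in the early and 9.00 and 7.46 TPM in the late WT libraries. In cKO it measured 7.07 and 9.05 TPM in early and 9.19 and 6.14 in late polysomes. The genotypes overlapped, with a log2 difference of -0.02 ± 0.11 (adjusted p = 0.951 by limma). Olfr720, far from the cluster, measured 2.54, 2.99, 3.98 and 4.65 TPM in the early and late WT libraries and 1.08, 1.17, 1.62 and 1.90 TPM in cKO, without overlap (-0.85 ± 0.17, adjusted p = 0.319). Olfr750, at the far end of the cluster, went the other way, with 1.07, 1.61, 1.76 and 1.43 TPM in WT and 2.69, 3.21, 2.23 and 2.95 TPM in cKO (0.65 ± 0.18, adjusted p = 0.369).

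Of the genes with all 4 cKO libraries below all 4 WT libraries, all but Olfr720 lay in 2 runs of neighbours, which were chosen after their values were seen and are given without a test. Olfr725 to Olfr729, between 50034314 and 50152910, made up 1.15 to 1.42% of all receptor TPM in WT and 0.512 to 0.612% in cKO. Olfr741 to Olfr743 made up 0.715 to 0.774% in WT and 0.280 to 0.395% in cKO. The 20 other genes of the cluster made up 1.59 to 1.79% in WT and 1.52 to 1.91% in cKO, so that they overlapped. Among these, Olfr739, a near-copy of Olfr742 by sequence, stood at 86.0% of WT in cKO with overlapping libraries. Olfr740, 92.6% identical to Olfr742, stood at 56.9% of WT in cKO, also with overlapping libraries. In the separate receptor group Olfr1507 to Olfr1513 of the same chromosome, Olfr1507 differed by -1.25 ± 0.12 on lysate means (adjusted p = 0.126), while 4 of the 7 genes had a negative difference, with a median of -0.069.

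**Figure D3:**
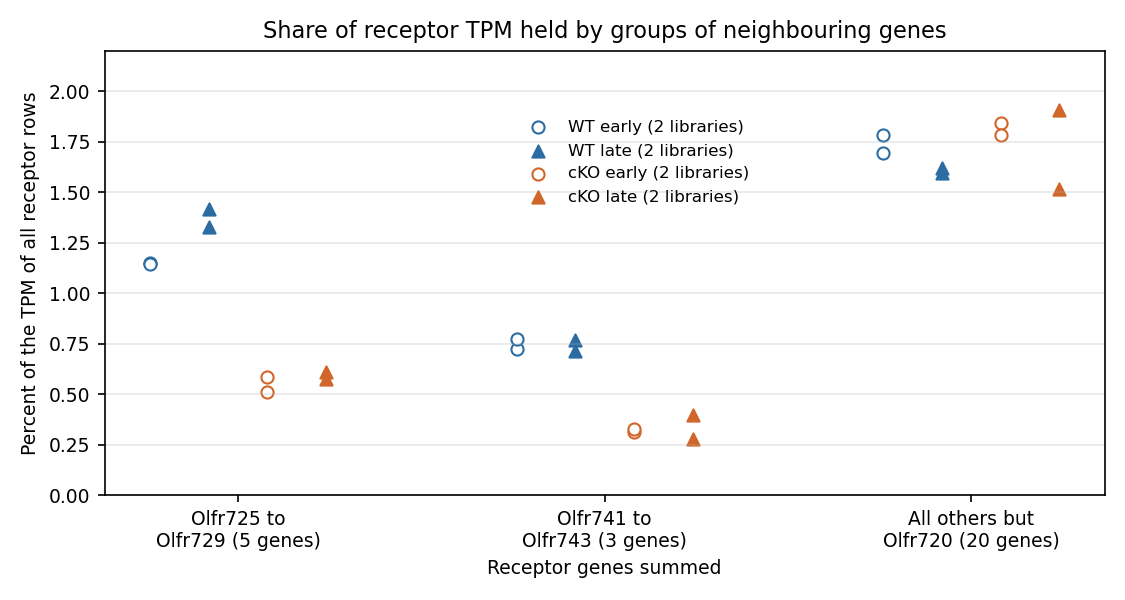
Share of the TPM of all receptor rows (percent, from 0) held by 3 groups of the receptor genes, 1 point per library. Olfr725 to Olfr729 and Olfr741 to Olfr743 are lower in all 4 cKO libraries (at most 0.612% and 0.395%) than in WT (at least 1.15% and 0.715%), and the 20 remaining genes of the cluster overlap.

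The comparison of late with early polysomes asks whether the mRNAs of these receptors lay in heavier or lighter polysomes. The difference was negative in 19 of the 26 genes tested (73.1%), in 71.6% of the other receptor genes and in 50.5% of all genes. Averaged over genotypes, 5 of 26 genes fell from early to late polysomes at an adjusted p under 0.05 in limma (all genes 34.6%, other receptor genes 24.2%) and 0 rose (34.3% and 4.51%). The 0 compares with 1 gene higher at an unadjusted p under 0.05 and 2 with voom. The median log2 difference was -0.20 over the 26 genes, -0.21 over the other receptor genes and -0.011 over all genes.

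Olfr739, a MOR106 receptor singled out after its values were seen, fell most firmly. It measured 5.89 and 5.65 TPM in early against 3.38 and 2.70 TPM in late polysomes of WT, and 4.36 and 5.29 TPM against 2.83 and 2.12 TPM in cKO. Early and late libraries did not overlap in either genotype. The change was -0.84 ± 0.15 (adjusted p = 0.00103 by limma), and the call held in all 17 alternatives run, with adjusted p from 0.000498 to 0.00911. Olfr749 had the largest fall, -0.89 ± 0.28 (adjusted p = 0.0217), from 2.22 and 4.35 TPM to 0.898 and 1.45 TPM in WT, and from 4.26 and 4.04 TPM to 3.80 and 1.17 TPM in cKO. Its late cKO libraries lay far apart, and the call was lost in 6 of 17 alternatives.

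The other genes that fell were Olfr728 (-0.36, adjusted p = 0.0395), Olfr730 (-0.44, 0.0168) and Olfr748 (-0.68, 0.0233). Their calls were lost in 12, 3 and 7 of the 17 alternatives. Olfr728 lost its call without any 1 library but cKO early replicate 1, Olfr730 without WT late replicate 2, Olfr748 without either early cKO library, either replicate 2 library of WT, or cKO late replicate 1, and Olfr749 without WT early replicate 2, WT late replicate 1, either early cKO library or cKO late replicate 2 (adjusted p at most 0.134 in these). With the lysate as a block, Olfr728 lost its call (adjusted p = 0.0608) and Olfr742 gained one (-0.56, adjusted p = 0.0439). For the count, leaving out a single library left 2 genes without WT early replicate 2, 3 without WT late replicate 1, 2 without WT late replicate 2 and 2 without cKO early replicate 2.

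The direction of the counts depends on the scaling between libraries. Left as deposited, 4 genes fell (all genes 30.3%) and 3 rose (38.9%), namely Olfr720, Olfr729 and Olfr740. With quantile normalization 2 fell (32.2%) and the same 3 rose (36.3%). With voom 6 fell (35.0%) and 2 rose (35.1%), Olfr720 and Olfr740. Scaled on the other receptor genes, 1 fell (21.7%), Olfr739, and 4 rose (43.1%), Olfr720, Olfr726, Olfr729 and Olfr740. That scaling moved the median of all genes to 0.23 on the log2 scale and the median of the 26 genes to -0.010. Olfr740, a MOR106 receptor, had the largest positive difference, 0.49 ± 0.22 (adjusted p = 0.0755). It measured 1.51 and 1.98 TPM in early and 3.05 and 4.30 TPM in late polysomes of WT, and 1.13 and 1.11 against 2.60 and 1.08 TPM in cKO, so that only the WT libraries separated by fraction.

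**Figure D4:**
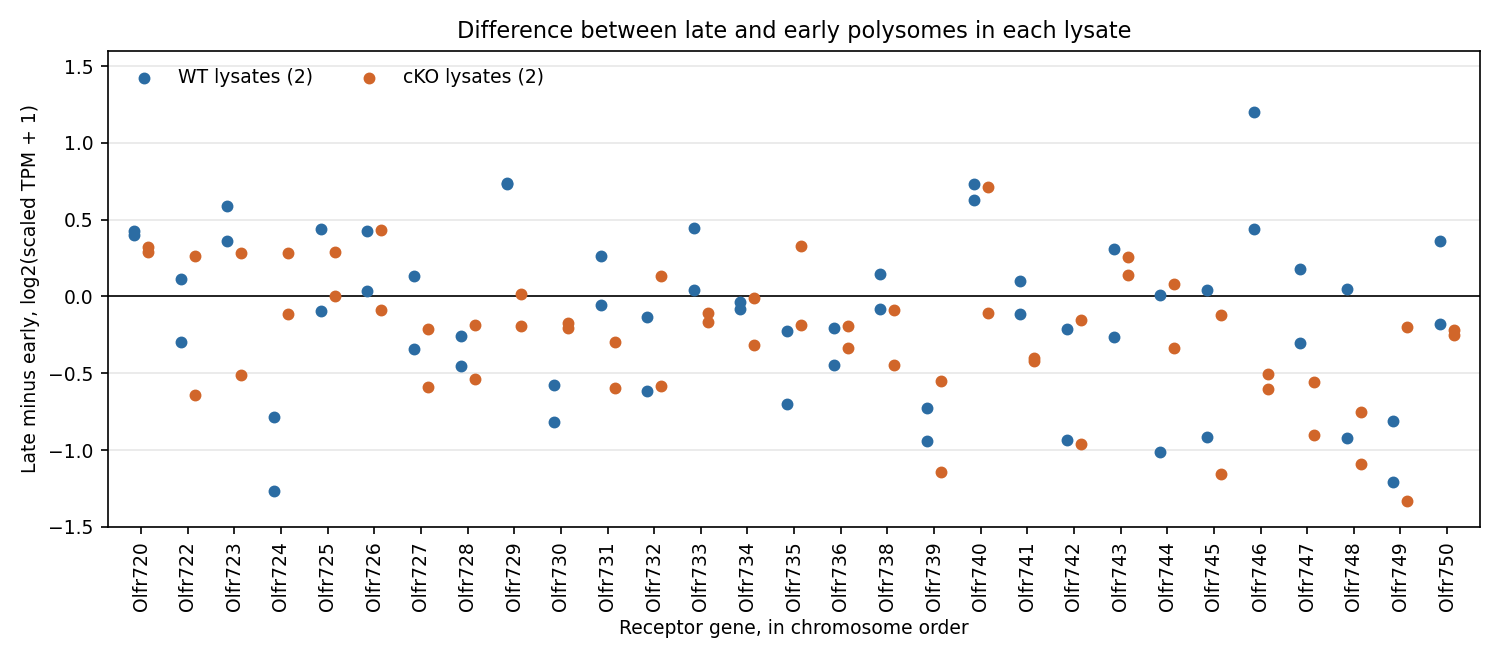
Log2 difference, late minus early, in each of the 2 WT (blue) and 2 cKO (orange) lysates for all 29 receptor genes in chromosome order. All 4 lysates lie below 0 for Olfr728, Olfr730, Olfr734, Olfr736, Olfr739, Olfr742 and Olfr749, and above 0 for Olfr720 only. Olfr729 lies at 0.73 and 0.74 in the WT lysates and at -0.19 and 0.02 in the cKO lysates.

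Within each genotype, 2 genes fell in WT (Olfr730, -0.70, and Olfr739, -0.83) and 1 rose (Olfr729, 0.73, adjusted p = 0.0212), where 27.7% of all genes fell and 27.1% rose. With the lysate as a block Olfr749 fell in WT too (-1.01, adjusted p = 0.0382). Olfr729 lost its call without any 1 of the WT libraries (adjusted p 0.0638 to 0.0842). Without WT late replicate 2 no gene was called in WT (4 at an unadjusted p under 0.05), without WT early replicate 2 only 1, and 5 without cKO late replicate 1 or without cKO late replicate 2. In cKO, 2 fell (Olfr739, -0.85, and Olfr748, -0.92) and 0 rose at an adjusted p under 0.05, where 29.2% of all genes fell and 28.9% rose. With voom 0 rose too. At an unadjusted p under 0.05, 3 fell and 0 rose. Olfr748 lost its call in cKO without any 1 of the cKO libraries (adjusted p 0.0508 to 0.125). Without cKO early replicate 2 no gene was called in cKO (1 at an unadjusted p under 0.05).

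Whether the fraction difference itself depended on genotype was tested with the interaction. None of the 26 genes passed in limma or in voom (all genes 0.00621%), and 1 did at an unadjusted p under 0.05 (all genes 2.85%, other receptor genes 4.26%). That gene was Olfr729, a MOR246 receptor 2 genes after Olfr727. It measured 1.93 and 1.85 TPM in early and 4.08 and 4.06 TPM in late polysomes of WT, against 1.37 and 1.44 TPM and 1.15 and 1.64 TPM in cKO. The late WT pair stood apart from the other 3 groups. The interaction was -0.82 ± 0.31 (unadjusted p = 0.0284, adjusted p = 1.0).

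The genes that carry a receptor's signal or bring it to the cilia were set beside these values. In the list of receptor signalling and export genes, 0 of 15 differed between genotypes on lysate means in limma at an adjusted p under 0.05, with a median of -0.061. At an unadjusted p under 0.05, 1 was lower (all genes 5.24%). Adcy3, the adenylyl cyclase of the cilia, differed by -0.05 ± 0.10 and Rtp1, a chaperone that takes receptors to the membrane, by -0.14 ± 0.08. From early to late polysomes 10 rose and 4 fell at an adjusted p under 0.05 (all genes 34.3% and 34.6%). Among them were Adcy3 (1.58 ± 0.12) and Gng13, a G protein gamma subunit (-1.73 ± 0.14). Of 17 genes tied to receptor choice, 0 differed between genotypes (1 lower at an unadjusted p). From early to late 9 rose and 7 fell, at the same thresholds. Lhx2, a transcription factor that binds receptor enhancers, differed between genotypes by 0.18 ± 0.07 (adjusted p = 0.441) and fell by 0.80 from early to late.

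Among cell type markers, the calls between genotypes on lysate means were 0 of 20 tested for mature neurons, 0 of 14 for immature neurons, 0 of 14 for globose basal progenitors, 0 of 9 for horizontal basal cells, 0 of 15 for sustentacular cells, 0 of 15 for gland and duct, and 0 of 10 for blood and immune cells. At an unadjusted p under 0.05, 2 mature neuron markers were lower in cKO, and 3 immature neuron markers were lower and 1 higher. At the same threshold 3 progenitor, 5 gland and duct, and 3 blood and immune markers were higher, with 0 for horizontal basal and sustentacular cells. Over all genes, 5.24% were lower and 6.09% higher at this threshold. Immature neuron markers summed to 4854 to 5063 TPM in WT and 4351 to 4623 TPM in cKO, without overlap, and none was at 0 in any library. Mature neuron markers summed to 19216 and 21991 TPM in WT and 19442 and 19543 TPM in cKO in early polysomes, and to 13985 and 14372 TPM in WT and 13144 and 11750 TPM in cKO in late polysomes, where the genotypes did not overlap. Blood and immune markers were higher in cKO in both pools, with sums of 557 and 562 TPM in WT against 749 and 640 TPM in cKO in early, and 729 and 701 TPM against 1008 and 798 TPM in late polysomes. Gland and duct markers overlapped in early polysomes and did not in late ones, where they summed to 32987 and 27839 TPM in WT and 38410 and 35718 TPM in cKO. Their part in the receptor differences was not tested.

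Averaged over genotypes, 34.3% of all genes rose and 34.6% fell from early to late polysomes at an adjusted p under 0.05. The markers that rose and fell at this threshold numbered 13 and 6 for mature neurons and 8 and 5 for immature neurons. They numbered 8 and 2 for globose basal progenitors, and 7 and 1 for horizontal basal cells. They numbered 13 and 1 for sustentacular cells, 10 and 5 for gland and duct, and 2 and 5 for blood and immune cells. Sustentacular markers summed to 8026 to 9815 TPM in the early and 14714 to 16872 TPM in the late libraries, while mature neuron markers summed to 19216 to 21991 TPM in early and 11750 to 14372 TPM in late. The median log2 change was 1.04 for sustentacular and 0.48 for mature neuron markers. The mature neuron sum therefore fell although more of its markers rose than fell. The part of these shifts in the late-against-early differences of the receptor genes was not tested.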

How the data were processed

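The authors deposited TPM values per gene symbol, 1 column per library, each summing to 1000000. Per the submitters' processing notes the tools were FastQC, cutadapt, STAR and DESeq2 with the mm10 build, and per the labels the libraries came from a low-input stranded total RNA kit. How TPM were computed is not given in the sources used here. Whole reads were inferred from the TPM steps for 19783 of 19783 rows above 0 in at least 2 libraries (tolerance 0.001 of a read). They enter only voom and the read counts.

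Groups and replicate numbers came from the sample titles. The Cre line is not reported here. Median ratios gave scaling factors of 0.931 to 1.06 for the libraries, and the scaled values entered, as log2(scaled TPM + 1), a fit by limma 3.58.1 in R 4.3.3, with a mean-variance trend, over all 16097 rows with a mean TPM of at least 1. The 8 libraries entered 1 fit of 4 groups, and lysate means were fitted separately. Tests were two-sided, with Benjamini-Hochberg adjustment over all rows and a threshold of 0.05. Fold changes on this scale understate those of low genes. The script was tested on simulated data.

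Values per library are given for the 6 genes with the highest mean TPM, those with the largest rise and fall between fractions, and those with the lowest p on lysate means and in the interaction. Other genes given per library (Olfr720, Olfr725, Olfr739, Olfr750) were chosen after their values were seen. The receptor genes, the cell type markers (mature and immature neurons, globose basal progenitors, horizontal basal cells, sustentacular cells, gland and duct, blood and immune cells), the signalling and export list and the receptor choice list were chosen with earlier results of these data known.

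Library names pair early and late libraries of 1 lysate. Deviations from the group means correlated at 0.0862 in WT and 0.0502 in cKO between these. They correlated at 0.331 (early) and 0.142 (late) between WT and cKO libraries that share a replicate number and a run of serial numbers, but no lysate. Coding sequences and positions came from GENCODE (GRCm38), family names from RefSeq. Percent identity was computed with Biopython 1.88.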

Additional observations from a re-analysis of the deposited data

Results flagged for a closer look

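Late minus early had opposite signs in the genotypes for Olfr733, a MOR241 receptor: 0.44 and 0.04 on the log2 scale in the 2 WT lysates, and -0.11 and -0.17 in the 2 cKO lysates. That pattern of signs was not itself tested. The interaction term in limma was -0.38 ± 0.35 (adjusted p = 1.0).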

How the results depend on the processing

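Late against early averaged over genotypes, the 5 genes called became 0 at a mean TPM of at least 5 (4 of the genes left), 9 without the mean-variance trend and 8 with voom, and 2 to 7 with a library left out. In WT the 3 genes called became 0, 5 and 7 under the same 3 settings, 5 with only the libraries compared, and 0 to 5 with a library left out. In cKO the 2 called became 0 at a mean TPM of at least 5, 1 with quantile normalization, 0 when scaled on the other receptor genes (an alternative chosen after seeing the data), and 0 to 3 with a library left out. The filter at a mean TPM of at least 5 removed every gene called in these comparisons. Its counts of 0 therefore did not retest those calls. Between genotypes on lysate means, 0 became 4 with voom (on the summed reads of each lysate) and 2 with the replicate number as a block. The counts between genotypes and for the interaction stayed at 0 with any library or lysate left out. With the lysate as a block, the pairing gave 5 genes averaged over genotypes (Olfr742 in place of Olfr728), 4 in WT (Olfr749 added), 2 in cKO and 0 for the interaction, and changed no other call. With voom, 35.0% of all genes fell and 35.1% rose averaged over genotypes. For lysates, 0.236% of all genes were called lower with voom and 0.28% with the replicate number as a block. For the other settings of this section the share of all genes called is not given here. A change in count there cannot be told apart from a general change in calls. The causes were not tested. For single genes, 262 of the values recomputed kept their side of the threshold, 44 lost it, 6 gained it and 0 reversed. Depth limits the lowest genes most: Olfr724, Olfr725 and Olfr746 held 33, 42 and 27 inferred reads over the 8 libraries together.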
